A study of Graphilbum sp. with 6 samples.

Results

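The genes described here are those by which hyphae of the fungus Graphilbum sp. take up nitrogen compounds and release ammonium from some of them: carriers for ammonium, nitrate, amino acids, small peptides, allantoate and nucleobases, together with nitrate reductase, urease and the enzymes that open allantoin. They were found by keywords in the best-hit descriptions of an assembled transcript table. The search was limited to the 4613 features whose best hit lies in Sporothrix, Grosmannia, Ophiostoma or Esteya, genera of the order Ophiostomatales, to which Graphilbum belongs. It returned 46 features among the 26694 of the table. By description they were 21 amino acid carriers, 10 peptide carriers, 6 genes of allantoin and allantoate, 3 ammonium transporters, 3 genes of urease, 2 of nitrate and 1 purine-cytosine permease. None of the 46 matched the keywords for nitrite, urea as a word of its own or uracil permease.

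Fungi import ammonium, amino acids, peptides, nitrate and purines through separate families of membrane carriers. Ammonium and glutamine are preferred sources, and in moulds such as Aspergillus and Neurospora the genes for other sources are repressed while these are plentiful and are switched on by GATA-type transcription factors when they run short. Carriers of peptides and amino acids also bring in the products of secreted proteases, and purines are broken down step by step to urea, which urease splits to ammonium.

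Total RNA of hyphae was sequenced in 2 groups of 3 libraries, described by the submitters as biological replicates. Before sampling, every culture had 5 days of growth at 28 °C on potato dextrose agar, and hyphae were washed in phosphate-buffered saline. The control group was sampled at 24 h, and the nematode group was held for 24 h with some 300 pine wilt nematodes, Bursaphelenchus xylophilus, a worm that feeds on fungal hyphae and kills pines. The protocol text mentions the nematodes for every library, so the groups rest on the titles and the treatment field, and what made the replicates separate is not stated. The p-values therefore measure the spread between these libraries.

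Values are TPM, a length-corrected share of transcripts, so levels of different genes can be compared, but the number of reads behind them is unknown. The Ophiostomatales-hit features held 68.5% to 70.0% of TPM in the controls and 28.7% to 39.4% with nematodes. Each library was therefore divided by the median ratio of these features, and the results, called rescaled TPM, compare the fungal genes with one another and not with total RNA. Features at 1 TPM or more numbered 8339 to 9659 in the controls and 22389 to 22612 with nematodes. How much of the lower share came from less fungal tissue, less RNA per hypha or added RNA of other organisms cannot be told from such shares. Control replicate 3 stood apart. The fit to all 6 libraries called 30 of 4568 features, and the fit without control replicate 3 called 630. Changes were tested with limma on log2(rescaled TPM + 1), with Benjamini-Hochberg adjustment over the 4568 features that had at least 1 rescaled TPM in at least 3 libraries and a threshold of 0.05. For genes with low TPM the pseudocount makes the fold change smaller than it is. Values by library are given in the order of replicates 1 to 3.

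An amino acid permease and the purine-cytosine permease rose with nematodes, 33.4-fold and 3.99-fold by the group means in rescaled TPM. The other 43 genes tested did not pass the threshold, and none fell past it. The 2 calls of 45, both rises, stand beside 28 rises among the 4568 Ophiostomatales-hit features, or 0.613%. Falls were called for 0.0438% of these features. The median log2 fold change was 0.05 over the 45 uptake genes and -0.03 over the 4568 features. Without control replicate 3 these were -0.05 and 0.00, and without nematode replicate 3 the median of the uptake genes was -0.03, so its sign rested on single libraries. With all libraries, 86.7% of the uptake genes against 97.9% of all features lay within 1 log2 unit of 0. The uptake genes were also lower in level, with a median of 17.6 rescaled TPM against 71.0 over the 4613 features. Means under 5 were found for 15 of the 46 and for 374 of the 4613. Whether level accounts for the wider spread was not tested. The remaining uptake gene, the amino acid permease TRINITY_DN11252_c0_g3, was too low to test. It had 5.82 rescaled TPM in control replicate 1 and was listed at 0 in the other 5 libraries.

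**Figure D1:**
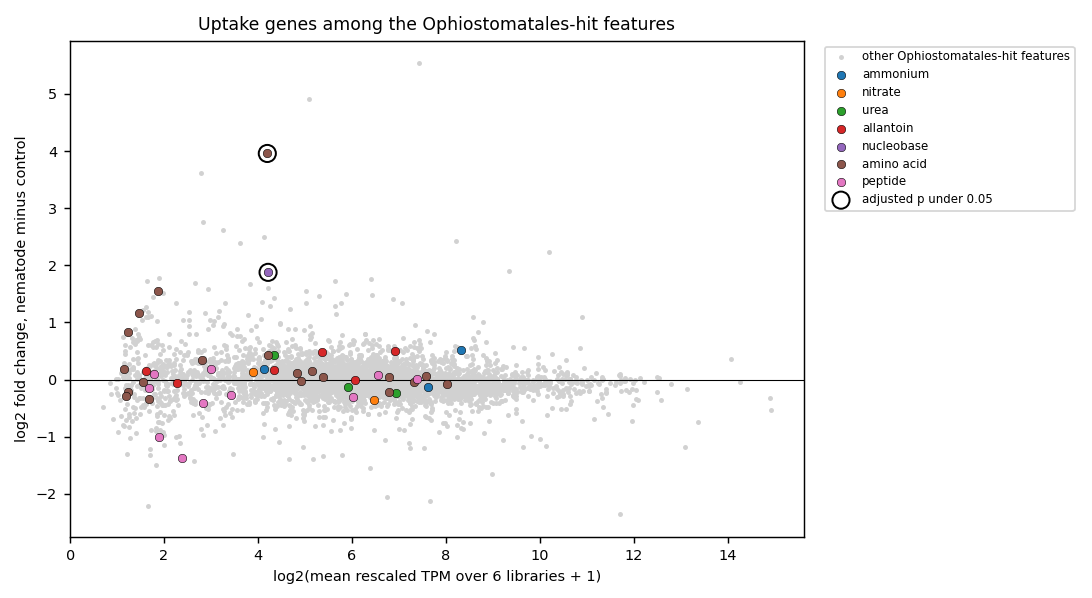
Log2 fold change (nematode minus control) against the mean level over the 6 libraries, as log2(rescaled TPM + 1), for the Ophiostomatales-hit features tested, with the 45 uptake genes coloured by role. The 2 ringed genes passed the threshold, at log2 fold changes of 3.96 and 1.88, and most of the other uptake genes lie in the grey band around 0.

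The abundant carriers were those of ammonium, amino acids and small peptides, and the genes spanned mean levels from 0.970 to 318 rescaled TPM with a median of 17.6. The summed level of the 46 genes was 2418 ± 332 rescaled TPM in controls, against 2527 ± 289 with nematodes (both SD, n = 3). This was 0.196% to 0.250% of the Ophiostomatales-hit total in the controls and 0.249% to 0.294% with nematodes. The 3 most abundant genes, the ammonium transporter mep2, the amino acid transporter TRINITY_DN506_c0_g1 and the ammonium transporter TRINITY_DN7424_c0_g1, made up 31.2% of the summed mean level.

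**Figure D2:**
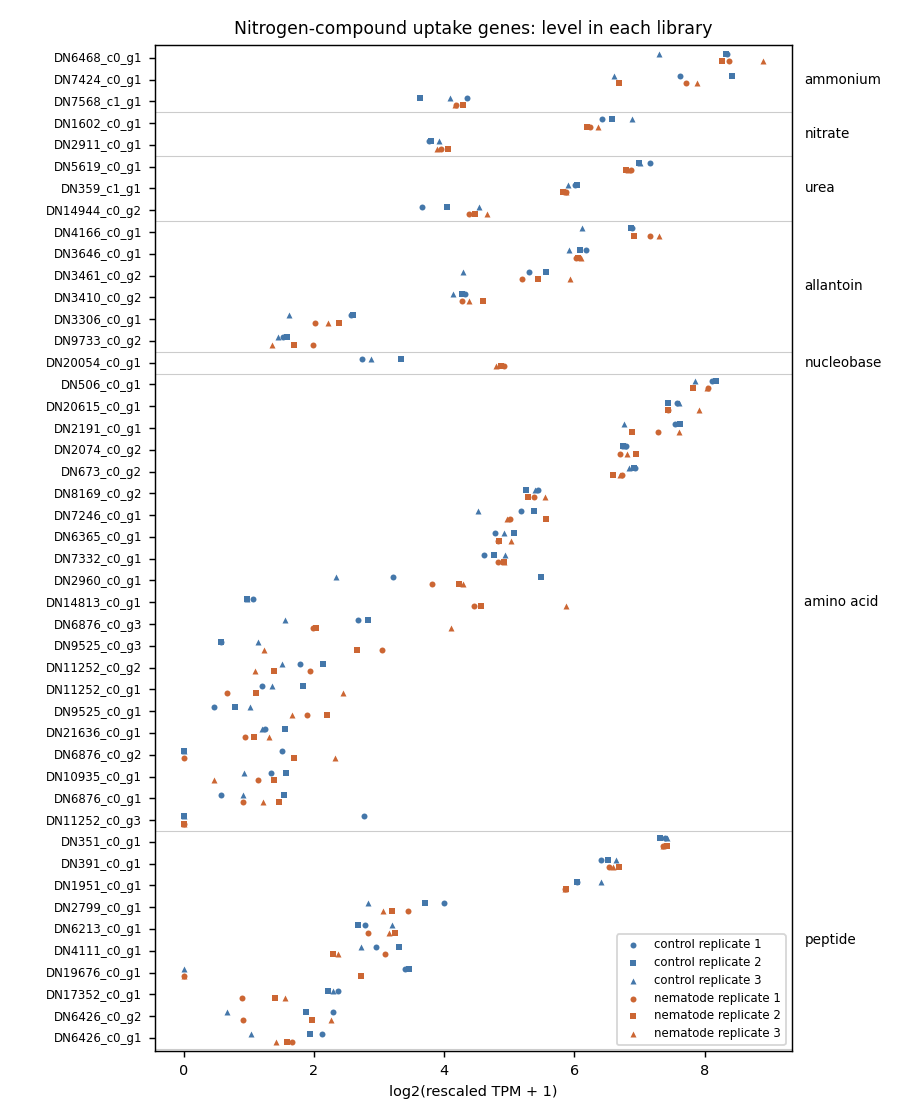
Level of each of the 46 genes in each library, as log2(rescaled TPM + 1), grouped by role and ordered by mean level within a role; blue marks control and orange nematode libraries, with 1 symbol per replicate. The groups overlap in most rows, and TRINITY_DN14813_c0_g1 and TRINITY_DN20054_c0_g1 show the widest gaps between them.

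Among the 21 amino acid carriers, 1 rose, none fell, 19 did not pass the threshold and 1 was too low to test. Most such fungal permeases import amino acids together with protons, and they differ in which amino acids they accept. The permease that rose, TRINITY_DN14813_c0_g1, had its best hit in Sporothrix insectorum, a fungus isolated from insects. It had 1.09, 0.962 and 0.971 rescaled TPM in the controls and 20.9, 22.7 and 57.5 with nematodes. The controls lay within 0.2 rescaled TPM of each other, whereas nematode replicate 3 was far above the other two. The means were 1.01 ± 0.0725 (SD, n = 3) and 33.7 ± 20.6 (SD, n = 3). The log2 fold change was 3.96 ± 0.38 SE (limma adjusted p = 0.00807, higher in 3 of 3 nematode libraries), the third largest rise of the 4568 features. The call held without any 1 library, with adjusted p from 0.00361 to 0.0429. With so low a control level the fold change depended on the pseudocount, and it was 4.77 with 0.1 and 2.56 with 5 in place of 1.

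The rise was present before rescaling. In the deposited TPM the permease had 0.730, 0.620 and 0.650 in the controls and 6.12, 9.88 and 22.8 with nematodes. On the same deposited scale, the 13300 features with at least 1 TPM in every nematode library and less in every control were higher in nematode replicate 1 than in the mean of the other two, with a median log2 ratio of 0.38. The Ophiostomatales-hit features tested had a median log2 ratio of -0.52, and the permease, itself 1 of the 13300, had -1.42. Nematode replicate 3, at 22.8 TPM, weighed most in the ratio of the permease. What these ratios have to do with the rise was not tested. With 1 control at or above 1 rescaled TPM, the permease passed the filter on low values through its nematode libraries.

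A pair of features of 1 assembly cluster, TRINITY_DN9525_c0_g1 and TRINITY_DN9525_c0_g3, both described as amino acid transporters of Grosmannia, lay next in order of change. TRINITY_DN9525_c0_g1 had 0.374, 0.729 and 1.03 rescaled TPM in controls and 2.70, 3.58 and 2.16 with nematodes. The groups did not overlap, but the log2 fold change of 1.16 ± 0.30 SE did not pass the threshold (limma adjusted p = 0.221). TRINITY_DN9525_c0_g3 had 0.494, 0.481 and 1.20 in controls and 7.21, 5.30 and 1.36 with nematodes, and nematode replicate 3 was close to the highest control (log2 fold change 1.55 ± 0.50 SE, limma adjusted p = 0.319). Since they share a cluster they may be pieces or copies of 1 gene and are not independent. The same holds for the 3 features of TRINITY_DN6876 and the 3 of TRINITY_DN11252, all amino acid permeases whose mean over the 6 libraries was under 6 rescaled TPM.

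The abundant amino acid carriers did not pass the threshold. TRINITY_DN506_c0_g1, the most abundant, had 276, 288 and 230.3 rescaled TPM in controls and 263, 226 and 262 with nematodes. The groups overlapped, and the 95% interval of the log2 fold change ran from -0.37 to 0.22. Amino acid permease 2 (TRINITY_DN20615_c0_g1) had means of 185 ± 10.8 and 195 ± 39.4 (SD, n = 3), and TRINITY_DN2074_c0_g2 of 108 ± 2.07 and 112 ± 10.1 (SD, n = 3). The APC-family permease TRINITY_DN2191_c0_g1 was more variable, with 185, 196 and 108 in control replicates 1 to 3 and 155, 117 and 194 with nematodes. A gene described as a member of solute carrier family 38, sodium-coupled neutral amino acid transporters in animals (TRINITY_DN673_c0_g2), had 121, 119 and 114 in controls and 105, 95.1 and 103 with nematodes. Its groups did not overlap, and the log2 fold change of -0.22 ± 0.09 SE did not pass (limma adjusted p = 0.446). The general amino acid permease agp2 (TRINITY_DN7246_c0_g1), whose namesake in baker's yeast carries carnitine and polyamines, had means of 32.6 ± 9.59 and 36.0 ± 8.99 (SD, n = 3).

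The amino acid transporter TRINITY_DN2960_c0_g1 varied widely among the controls. It had 8.29, 43.9 and 4.08 rescaled TPM in control replicates 1 to 3 but 13.1, 17.7 and 18.4 with nematodes. All nematode values thus fell inside the range of the controls.

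**Figure D3:**
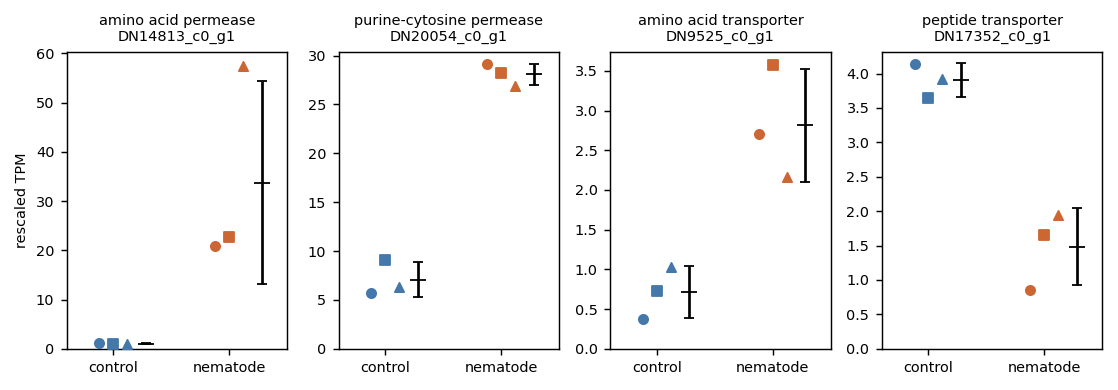
Rescaled TPM by library for 4 carriers, with points for the replicates and the mean ± SD (n = 3) beside them; each panel has its own axis from 0. The amino acid permease and the purine-cytosine permease passed the threshold, and the amino acid transporter and the peptide transporter did not, although their groups do not overlap.

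The purine-cytosine permease TRINITY_DN20054_c0_g1 belongs to the family of nucleobase carriers that imports adenine, guanine, hypoxanthine and cytosine in yeast and Aspergillus. It had 5.68, 9.08 and 6.37 rescaled TPM in the controls and 29.1, 28.2 and 26.9 with nematodes. The nematode libraries were close together and each was above every control. Means were 7.04 ± 1.80 and 28.1 ± 1.11 (SD, n = 3). The log2 fold change was 1.88 ± 0.18 SE (limma adjusted p = 0.00807). It ranked twelfth among the rises. The size held in every omission, from 1.75 to 2.05, but the adjusted p did not: it was 0.0800, 0.0570 and 0.0519 without nematode replicates 1, 2 and 3. In the deposited TPM it had 3.80, 5.85 and 4.26 in controls and 8.51, 12.3 and 10.7 with nematodes. Its log2 ratio of nematode replicate 1 to the other two was -0.43, near the median of the Ophiostomatales-hit features.

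Genes of the steps after purine import did not pass the threshold. Xanthine dehydrogenase and urate oxidase oxidize purines to uric acid and beyond, allantoinase and allantoicase open the ring and cleave the product, ureidoglycolate hydrolase releases urea, and urease splits urea. Xanthine dehydrogenase (TRINITY_DN121_c1_g2, described as aldehyde oxidase/xanthine dehydrogenase) had means of 64.3 ± 2.88 and 63.7 ± 3.90 rescaled TPM (SD, n = 3). Allantoinase (TRINITY_DN3410_c0_g2) had 17.9 ± 1.17 and 20.4 ± 2.54 (SD, n = 3). Allantoicase (TRINITY_DN3646_c0_g1) had 65.9 ± 5.96 and 65.6 ± 1.95 (SD, n = 3), with a 95% interval of the log2 fold change from -0.25 to 0.24. Ureidoglycolate hydrolase (TRINITY_DN7700_c0_g1) had 153 ± 16.2 and 154 ± 20.9 (SD, n = 3). Each of these intervals lay below the 1.45 at which that of the permease began.

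Urate oxidase (TRINITY_DN505_c1_g1) depended on control replicate 3. It had 176, 164 and 416 rescaled TPM in control replicates 1 to 3 and 219, 244 and 247 with nematodes. All 3 nematode libraries were above the first 2 controls and below the other. With all libraries the log2 fold change was 0.04 (limma adjusted p = 0.979), and without control replicate 3 it was 0.48 (adjusted p = 0.0193).

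**Figure D4:**
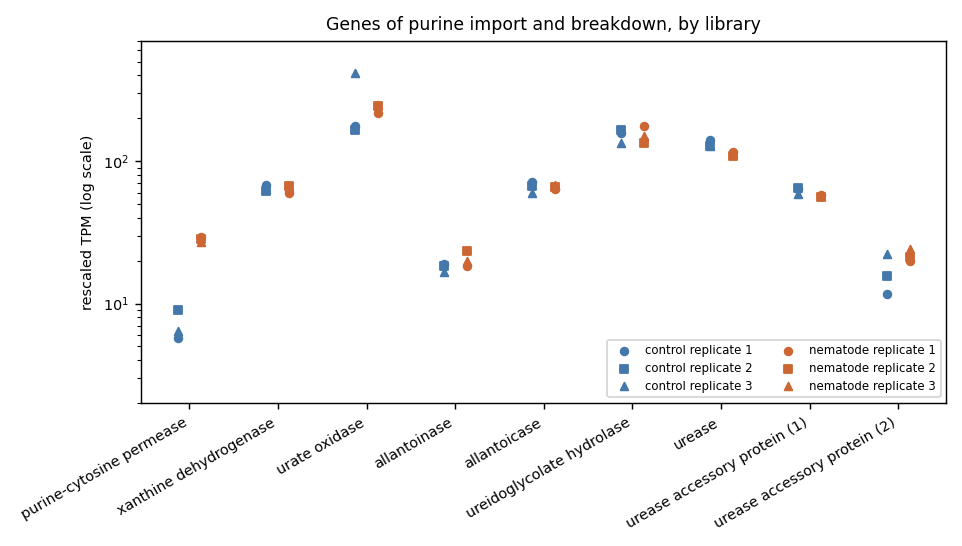
Rescaled TPM by library, on a log axis, for the purine-cytosine permease and the genes of the steps from xanthine dehydrogenase to urease and its accessory proteins. The permease is at 5.68 to 9.08 in controls and 26.9 to 29.1 with nematodes, whereas most later steps overlap between groups.

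The 10 peptide carriers gave no call, and 6 of them had a log2 fold change below 0, as did 2523 of the 4568 Ophiostomatales-hit features. Their median was -0.21, and it was -0.42 without control replicate 3 and -0.01 without control replicate 1. By their descriptions they include members of the OPT family, which carries peptides of several residues and related compounds, and of the proton-coupled POT or PTR family, which carries dipeptides and tripeptides. The most abundant, the OPT-family gene TRINITY_DN351_c0_g1, had 167, 158 and 169.5 rescaled TPM in controls and 163, 171 and 164 with nematodes. The groups overlapped throughout, with a 95% interval of the log2 fold change from -0.19 to 0.22. TRINITY_DN391_c0_g1 had means of 91.1 ± 7.30 and 95.9 ± 5.47 (SD, n = 3). The small oligopeptide transporter TRINITY_DN1951_c0_g1 had 64.5, 64.9 and 83.9 in controls and 56.7, 57.3 and 56.7 with nematodes. Its groups did not overlap, and the log2 fold change of -0.30 ± 0.13 SE did not pass (limma adjusted p = 0.456). Without control replicate 3, the highest library, it was -0.17.

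The 2 lowest changes among all uptake genes were also those of peptide carriers, both with low levels. The peptide transporter TRINITY_DN17352_c0_g1 had 4.14, 3.65 and 3.91 rescaled TPM in controls and 0.855, 1.65 and 1.94 with nematodes. Every nematode library was below every control, and the log2 fold change of -1.01 ± 0.26 SE had an adjusted p of 0.224 (limma). The POT-family gene TRINITY_DN19676_c0_g1 had 9.51 and 9.98 in control replicates 1 and 2 and 5.58 in nematode replicate 2, and was listed at 0 in the other 3 libraries. Its log2 fold change of -1.38 had an SE of 1.14 (limma adjusted p = 0.725).

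The 3 ammonium transporters gave no call. Proteins of this family import ammonium when it is scarce, and mep2 also acts as an ammonium sensor for filamentous growth in baker's yeast and Candida. The mep2 gene (TRINITY_DN6468_c0_g1) had the highest mean level of the 46 genes, with 324, 318 and 156 rescaled TPM in the controls and 329, 307 and 473 with nematodes. Control replicate 3 was below and nematode replicate 3 above the other 4 libraries, which lay within 307 to 329. The log2 fold change was 0.52 ± 0.31 SE (limma adjusted p = 0.619), and 0.18 without control replicate 3 (adjusted p = 0.485). TRINITY_DN7424_c0_g1 varied within both groups, with 197, 342 and 96.4 in controls and 209, 102 and 236 with nematodes. Its 95% interval of the log2 fold change, -1.31 to 1.06, spanned changes of more than 1 log2 unit in either direction. TRINITY_DN7568_c1_g1 was lower, with means of 15.6 ± 4.02 and 17.5 ± 0.813 (SD, n = 3).

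Nitrate use was represented by a transporter and a reductase. Nitrate reductase (TRINITY_DN1602_c0_g1), which reduces nitrate to nitrite, had 84.4, 94.3 and 117 rescaled TPM in controls and 74.8, 71.8 and 81.5 with nematodes. The groups did not overlap, and the log2 fold change of -0.36 ± 0.14 SE did not pass (limma adjusted p = 0.429). Without control replicate 3, the highest library, it was -0.22 (adjusted p = 0.142). The nitrate transporter (TRINITY_DN2911_c0_g1) had means of 13.2 ± 0.812 and 14.6 ± 0.940 (SD, n = 3).

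Urease, the nickel enzyme that splits urea to ammonium and carbon dioxide (TRINITY_DN5619_c0_g1), had 142, 127 and 127 rescaled TPM in controls and 116, 109 and 112 with nematodes. Every nematode library was below every control, and the log2 fold change of -0.23 ± 0.09 SE did not pass (limma adjusted p = 0.441). The accessory proteins, which load nickel into urease, did not pass. TRINITY_DN359_c1_g1 had means of 62.2 ± 3.31 and 56.7 ± 1.02 (SD, n = 3), with no overlap between groups (limma adjusted p = 0.687). TRINITY_DN14944_c0_g2 had 11.7, 15.5 and 22.2 in controls and 19.9, 21.2 and 24.2 with nematodes, and control replicate 3 lay among the nematode libraries. Its log2 fold change was 0.42 ± 0.23 SE (limma adjusted p = 0.579) and rose to 0.66 without control replicate 3 (adjusted p = 0.0387), a call it gained while 7.64% of all features were called higher and 13.8% in either direction.

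The allantoate carriers did not pass either. Carriers of this name take up allantoate, a product of purine breakdown, in baker's yeast, and related proteins take up other organic anions. The most abundant of the 3, TRINITY_DN3461_c0_g2, had 38.6, 46.2 and 18.5 rescaled TPM in controls and 35.6, 42.6 and 60.2 with nematodes. TRINITY_DN3306_c0_g1 and TRINITY_DN9733_c0_g2 had mean levels under 4. A feature described only as allantoin (TRINITY_DN4166_c0_g1), whose function the description does not give, had 117, 116 and 68.6 in controls and 142, 119 and 156 with nematodes. Its log2 fold change was 0.50 ± 0.23 SE (limma adjusted p = 0.496), and 0.25 without control replicate 3 (adjusted p = 0.172). Control replicate 3 was the lowest control for all 6 genes of allantoin and allantoate, for 23 of the 45 uptake genes tested (51.1%) and for 44.6% of the Ophiostomatales-hit features. It was the highest control for 11 of the 45 uptake genes and for 2121 of the 4568 Ophiostomatales-hit features.

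**Figure D5:**
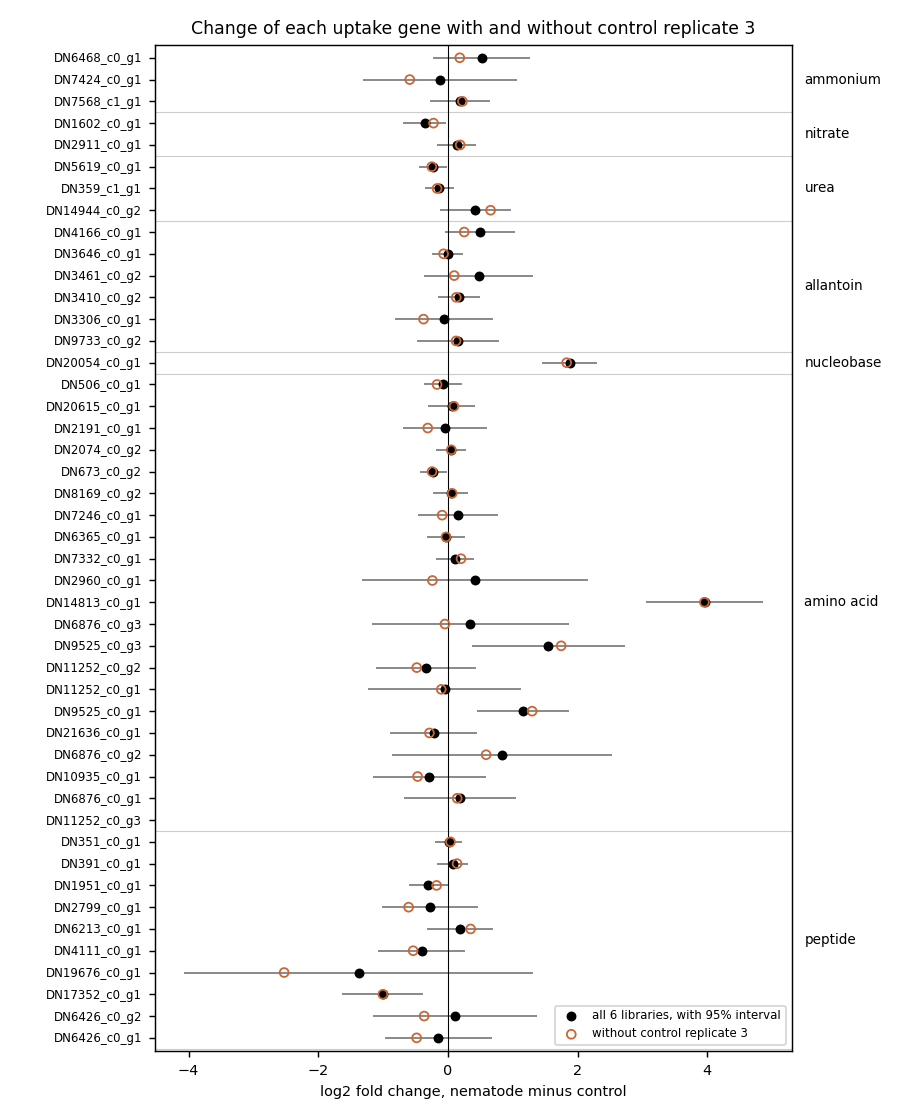
Log2 fold change (nematode minus control) of each uptake gene with its 95% interval from limma (black) and the value without control replicate 3 (open orange circles), grouped by role. The intervals of TRINITY_DN14813_c0_g1 (3.06 to 4.86) and TRINITY_DN20054_c0_g1 (1.45 to 2.31) lie farthest above 0, and mep2 (TRINITY_DN6468_c0_g1) and TRINITY_DN4166_c0_g1 lie nearer 0 without control replicate 3.

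All nematode libraries lay above all controls for 5 of the 45 genes, against 10.5% of the Ophiostomatales-hit features, and below them for 6, against 7.79%. An unadjusted p under 0.05 was reached by 9 of the 45 genes and by 10.8% of all features.

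Genes that act next to uptake, in 4 lists of Ophiostomatales-hit features, gave no call in the fit of 6 libraries. Of the 36 assimilation genes tested, 0 rose and 0 fell, with 4 at an unadjusted p under 0.05. The list was drawn by keyword and also took in transamidases, ceramidases and polyglutamate synthases of other pathways. NAD-specific glutamate dehydrogenase, which releases ammonium from glutamate (TRINITY_DN1888_c0_g2), had 296, 279.6 and 308 rescaled TPM in controls and 443, 555 and 444 with nematodes. Every nematode library was above every control, and the log2 fold change of 0.70 ± 0.12 SE had an adjusted p of 0.0751 (limma). Across omissions the adjusted p ran from 0.0126 without control replicate 3 to 0.297 without control replicate 1. The fit without control replicate 3 called 13.8% of the Ophiostomatales-hit features. Cyanate lyase, which turns cyanate to ammonia and carbon dioxide (TRINITY_DN1333_c0_g1), had 273, 283 and 363 in controls and 213, 205 and 196 with nematodes. Its log2 fold change was -0.57 ± 0.13 SE (limma adjusted p = 0.164). The adjusted p ran from 0.0189 without control replicate 3 to 0.555 without nematode replicate 3. The third smallest p was that of a GPI-anchor transamidase precursor (TRINITY_DN18554_c0_g1), a gene of protein anchoring. It had 70.4, 76.9 and 81.6 in controls and 117, 93.8 and 100.5 with nematodes (log2 fold change 0.44, limma adjusted p = 0.224). Its adjusted p ran from 0.0346 without control replicate 3 to 0.604 without control replicate 1.

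The main enzymes of ammonium assimilation did not pass. Glutamine synthetase, which joins ammonium to glutamate (TRINITY_DN5968_c0_g1), was far more abundant than any uptake gene, at 9493 ± 990.1 and 8403 ± 301 rescaled TPM (SD, n = 3). NADP-specific glutamate dehydrogenase, which makes glutamate (TRINITY_DN807_c1_g1), had 1596, 1142 and 2906 in controls and 1498, 1469 and 1094 with nematodes, so control replicate 3 was above every other library. Glutamate synthase (TRINITY_DN966_c0_g1) had means of 71.1 ± 17.2 and 75.5 ± 14.7 (SD, n = 3).

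Other carriers of nitrogen compounds numbered 12, with 0 rises, 0 falls and 2 at an unadjusted p under 0.05. One permease of the inda1 type, named after an inducible amino acid permease of Trichoderma (TRINITY_DN5512_c0_g1), had 61.4, 51.5 and 91.3 rescaled TPM in controls and 101, 88.7 and 113 with nematodes. Control replicate 3 overlapped the nematode group, and the log2 fold change was 0.60 ± 0.22 SE (limma adjusted p = 0.378), or 0.83 without that library (adjusted p = 0.0124). Other omissions gave an adjusted p of up to 0.817. The other inda1 permease, TRINITY_DN3210_c0_g1, was the most abundant carrier of the list, at 1320 ± 102 and 1459 ± 305 (SD, n = 3). A second carrier of the nucleobase family, described as an ncs1 nucleoside transporter (TRINITY_DN4715_c0_g1), had 38.7, 38.2 and 32.9 in controls and 43.5, 46.2 and 54.5 with nematodes. Its groups did not overlap, and the log2 fold change of 0.38 ± 0.13 SE did not pass (limma adjusted p = 0.332). The cytosine-purine permease TRINITY_DN8997_c0_g1 was low in both groups, at 3.10 ± 0.817 and 2.20 ± 0.839 (SD, n = 3).

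In the list of purine breakdown, 0 of 8 genes passed in either direction. The smallest p was that of a tRNA-specific adenosine deaminase, which edits transfer RNA and does not feed purine breakdown (TRINITY_DN18695_c0_g1). It had 45.8, 48.3 and 40.7 rescaled TPM in controls and 38.5, 36.0 and 34.2 with nematodes (log2 fold change -0.30, limma adjusted p = 0.396). The regulation list held 3 GATA transcription factors and a nitrogen permease regulator, with 0 rises, 0 falls and log2 fold changes from -0.13 to 0.16. Without control replicate 3, 4 of the 60 genes tested in the 4 lists were called higher and 5 lower, where 7.64% and 6.15% of all Ophiostomatales-hit features were.

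The number of uptake genes called differed between fits. In TPM as deposited, which also counts the transcripts of other organisms, 21 of the 38 uptake genes tested were lower with nematodes, where 78.8% of the Ophiostomatales-hit features were, and 2 were higher, against 0.471%. Both rises were again TRINITY_DN14813_c0_g1 and TRINITY_DN20054_c0_g1. When every feature was multiplied by the factors of the Ophiostomatales-hit features and fitted together, log2 fold changes stayed as they were, 4 uptake genes were higher (4.29% of the Ophiostomatales-hit features) and 1 lower (1.99%). The added calls were both TRINITY_DN9525 features (limma adjusted p = 0.00629 and 0.0209) and, lower, the peptide transporter TRINITY_DN17352_c0_g1 (limma adjusted p = 0.0125). That fit adjusted p over 23479 features in place of 4568, and an adjusted p depends on the p-values of all features in a fit. An unadjusted p under 0.05 was reached by 5 uptake genes in it, against 9 in the fit of the Ophiostomatales-hit features alone.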

How the data were processed

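RNA of 6 hyphal libraries, 3 control and 3 nematode by their titles, was quantified by the authors, who deposited 1 table of TPM for 26694 features of every organism present. The names are Trinity-style, per the file headers and feature names; the software and versions behind the table are not stated in the labels. The authors' group means were not used. TPM keeps no depth, so no counting interval is given.

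The Ophiostomatales-hit features were divided by each library's median ratio, over features above 0 in all libraries, and their totals were set to average 1e+06. Values were fitted in R 4.3.3 with limma 3.58.1 (eBayes with trend), nematode minus control, without covariates. An exact permutation test of 3 against 3 libraries cannot go below p = 0.1 and was not used. The fit was tested on simulated data.

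The members and lists were chosen with earlier results of these data known. Values by library are given for genes past the threshold, those with an unadjusted p under 0.05, the most abundant and the most changed of each role, and up to 3 of each related list with the smallest p, where it was under 0.05. Others shown by library were chosen after their values were seen: TRINITY_DN7424_c0_g1, TRINITY_DN2191_c0_g1, TRINITY_DN2960_c0_g1, TRINITY_DN3461_c0_g2, urate oxidase and NADP-specific glutamate dehydrogenase. Alternatives were other pseudocounts and filters, trimmed-mean (TMM) scaling, TPM as deposited, a replicate block, leaving out each library and, chosen after seeing the data, class scaling of all features. No genome was used, so no sequence or coordinate is given.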

Additional observations from a re-analysis of the deposited data

Results flagged for a closer look

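Features with the same keywords but a best hit outside Ophiostomatales numbered 25. Of these, 13 had at least 1 TPM in every nematode library and under 1 TPM in every control. The same rule took 13300 of the 26694 features of the table. The summed level of the 13 averaged 80.6 ± 11.4 TPM (SD, n = 3) in the nematode libraries and 0.0167 TPM in the controls. The fit of the Ophiostomatales-hit features leaves these features out. Their libraries were at 93.7, 73.4 and 74.5 TPM in nematode replicates 1 to 3, highest where the Ophiostomatales-hit share was lowest. TPM are shares of 1 total, so features with other hits as a whole go up where that share goes down. All 13 are carriers of amino acids or peptides by description, with mean nematode levels from 1.90 to 18.9 TPM, and their best hits lie in fungal genera such as Rozella, Mucor, Piromyces and Glomus. None of the 13 features has a best hit in a nematode, and 12 were listed at 0 in every control. Whether any feature of the table has a best hit outside fungi is not given here. The hits therefore do not tell which organism these features came from, and this was not tested.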

How the results depend on the processing

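The rise of TRINITY_DN14813_c0_g1 kept its direction and its call under every alternative run, with log2 fold changes from 2.56 (pseudocount 5) to 4.77 (pseudocount 0.1). TRINITY_DN20054_c0_g1 kept its direction throughout and its call under other pseudocounts, other filters, TMM and undivided TPM, but had an adjusted p of 0.0546 with a replicate block at the same log2 fold change of 1.88, and lost its call without any 1 nematode library. The uptake genes called higher were therefore 1 with the replicate block and 1 to 3 when a library was left out, and none was called lower in these fits. Across omissions, TRINITY_DN14813_c0_g1 ranged from 3.50 to 4.21 and TRINITY_DN20054_c0_g1 from 1.75 to 2.05. All Ophiostomatales-hit features called numbered 12 with the replicate block and 8 to 630 across omissions, and related genes 0 to 9. Deviations of same-numbered libraries from their group means correlated at 0.15, -0.43 and -0.28. Control replicate 1 correlated best with nematode replicate 1 (0.15), control replicate 2 with nematode replicate 3 (0.36) and control replicate 3 with nematode replicate 2 (0.41). With 3 libraries a group, deviations from the group mean depend on each other. These values therefore cannot settle whether the replicate numbers pair the libraries.

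In TPM as deposited, where the median of the Ophiostomatales-hit features is -0.82 in place of -0.03, 3536 of them were called, with 78.8% lower and 0.471% higher. Of 38 uptake genes tested there, 21 were lower and 2 higher, and 41 related genes were called. The log2 fold change changed sign for TRINITY_DN14944_c0_g2 (-0.35), TRINITY_DN351_c0_g1 (-0.81), TRINITY_DN4166_c0_g1 (-0.33), TRINITY_DN6468_c0_g1 (-0.31), TRINITY_DN18554_c0_g1 (-0.39), TRINITY_DN1888_c0_g2 (-0.14), TRINITY_DN4715_c0_g1 (-0.42) and TRINITY_DN5512_c0_g1 (-0.23). Class scaling of every feature in 1 fit, chosen after seeing the data, called 287 Ophiostomatales-hit features, 4 uptake genes higher (both TRINITY_DN9525 features joined), 1 lower (TRINITY_DN17352_c0_g1) and 4 related genes. Across omissions TRINITY_DN351_c0_g1 ranged from -0.025 to 0.040 and TRINITY_DN506_c0_g1 from -0.17 to 2.8e-05. The class-scaled fit adjusted p over 23479 features, and 387 Ophiostomatales-hit features in it had an unadjusted limma p under 0.05, against 494 in the main fit. Its added calls thus did not come with more small unadjusted p-values. Benjamini-Hochberg adjustment depends on the p-values of every feature in a fit, so adjusted p cannot be compared directly between both fits. Why the fits differ otherwise was not tested. Precision is limited by 3 libraries a group and by unknown depth, most for genes near 1 TPM.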

Other observations

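A pair of carriers left out by the genus rule, with best hits in the ascomycete Phaeoacremonium and at least 1 TPM in every library, were higher with nematodes on the scale of the Ophiostomatales-hit features. They were chosen after their values were seen, from 5 left-out keyword features with at least 1 TPM in every control. The rest of these did not pass the threshold on that scale. Log2 fold changes were -0.64 for the allantoate carrier TRINITY_DN2113_c0_g1, also with a Phaeoacremonium hit, and -0.54 for TRINITY_DN4608_c0_g1. The ammonium transporter TRINITY_DN5000_c0_g1 had 0.09. The oligopeptide transporter TRINITY_DN15952_c0_g1 had 26.6, 24.1 and 29.4 TPM as deposited in the controls and 29.6, 53.2 and 46.0 with nematodes. Multiplied by the scaling factors of the Ophiostomatales-hit features, it had 39.8, 37.5 and 43.9 in controls and 101, 122 and 116 with nematodes. Every nematode library was then above every control, with a log2 fold change of 1.46 ± 0.14 SE (limma adjusted p = 2.13e-05 over all features; 0.63 and adjusted p = 0.0420 in TPM as deposited).

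The other, a purine-cytosine permease (TRINITY_DN9471_c0_g1), had 25.9, 27.1 and 24.1 in controls and 50.9, 61.8 and 69.6 with nematodes on the same scale. Its log2 fold change was 1.20 ± 0.16 SE (limma adjusted p = 0.000203 over all features), but 0.38 in TPM as deposited (adjusted p = 0.192). That fit over all features called 4.29% of the Ophiostomatales-hit features higher and 1.99% lower, but this pair lies outside those features. The share called among features with other hits was not worked out. The carriers found with nematodes alone were also called higher in that fit. They were picked by these same values, so their calls carry no weight.

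Most abundant of the 25 was an ncs1 allantoate transporter (TRINITY_DN4608_c0_g1), with 674, 622 and 1947 in controls and 636, 654 and 633 with nematodes on the class scale. Apart from control replicate 3, the 5 libraries lay between 622 and 674. Of the rest, 3 features had a listed value of 0 with nematodes in every replicate, and each had under 1 TPM in at least 1 control.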
